A study of Mus musculus with 18 samples.

Results

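The 10 genes described here, *Bcl6*, *Mef2b*, *Mef2c*, *Bach2*, *Irf8*, *Spib*, *Pou2af1*, *Ebf1*, *Pax5* and *Foxo1*, encode transcription factors of B cells and of the germinal center, with 1 coactivator (*Pou2af1*) among them. They were taken by gene symbol from a table of 55491 genes, and each symbol matched 1 row. The table held RNA-seq of B cells that were isolated from 2 tissues, spleen and Peyer's patches, of female BALB/cJ mice aged 10–12 weeks. All mice, the PBS controls included, were sensitized intraperitoneally with ovalbumin (OVA, 20 µg) and alum (1 mg) on days 0 and 14. On days 28 and 42 they then received an intravenous injection of PBS (100 µL), soluble OVA (100 µg) or OVA-carrying nanoparticles (OVA NP, 2.5 mg), and tissues were collected on day 44. Each of the 3 treatments was measured in 3 libraries per tissue, which gives 6 groups and 18 libraries, and the question posed by the design was how each treatment changed B cells in either tissue. B cells were isolated by negative magnetic selection, so the libraries hold mixed B cells (naive, germinal center and memory) and not a sorted germinal center population. Nothing in the labels says whether a spleen and a Peyer's patch library with the same number came from 1 mouse, and all p-values measure the spread between 3 libraries per group.

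Germinal centers are clusters of antigen-activated B cells in lymphoid follicles, where the cells divide, mutate their antibody genes and compete for T cell help. Ebf1 and Pax5 set up and hold B cell identity, while Bcl6, a transcriptional repressor, starts and keeps the germinal center program, with Mef2b among its activators, Foxo1 needed for the dark zone and Bach2 holding back plasma cell differentiation. Peyer's patches carry standing germinal centers fed by gut antigens, whereas germinal centers in the spleen form mainly after antigen is given.

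The libraries held 14177253 to 30052297 expected counts each, with 24274297 to 30052297 in the Peyer's patch soluble OVA group and the lowest total in Peyer's patch PBS replicate 2, which also carried a library number (19) apart from the others of its group (10 and 12). As a check of the labelled cell type, 5 B cell markers summed to 6545.6–7560 CPM (counts per 1000000 library counts) in the spleen and to 4775–6002.4 in Peyer's patches, against at most 32.9 CPM for 8 T cell markers. Markers of gut epithelium (6 genes) summed to 7.11–9.54 CPM in the spleen and to far more in Peyer's patches. There they varied within groups, at 150.1–474.6 CPM with PBS, 176.4–679.8 with soluble OVA and 345.6–664.6 with OVA NP. The T cell sum was 24.6–32.9 CPM in Peyer's patch OVA NP libraries, above the 12.96–17.2 of PBS and the 8.66–14.5 of soluble OVA libraries. Mitochondrial transcripts made up 9.08–9.80% of counts in Peyer's patch OVA NP libraries, 5.41–7.67% in PBS, 4.97–6.02% in soluble OVA and 2.82–3.41% in the spleen. In the spleen, 8 monocyte and macrophage markers summed to 94.6–234.3 CPM with PBS, 40.5–84.3 with soluble OVA and 45.8–166.9 with OVA NP, and in Peyer's patches 8 dendritic cell markers summed to 65.2–86.0, 59.9–63.0 and 93.4–99.1 CPM. The monocyte and macrophage markers summed to 121.9–161.6 CPM with PBS in Peyer's patches, 96.2–109.8 with soluble OVA and 145.9–235.2 with OVA NP. There 6 stromal and endothelial markers summed to 188–218.7, 90.6–114 and 146–173 CPM in the same order. Whether RNA of other cells or mitochondrial content had a part in the treatment differences below was not tested. Peyer's patches were digested with collagenase and DNase and spleens were dissociated mechanically, so tissue and dissociation cannot be told apart.

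All 10 genes were detected in every library, and they differed far more from each other than most differed between groups. Per kilobase of exon, *Pou2af1* had the highest group means at 290.6–511.5 CPM, followed by *Spib* (143–183) and *Pax5* (109–163). *Irf8* lay at 74.6–86.3 CPM per kilobase, and *Bcl6*, *Mef2c*, *Bach2*, *Foxo1* and *Ebf1* had group means between 13.5 and 46.6. *Mef2b* ran from 2.85 CPM per kilobase in PBS spleen to 149 in Peyer's patches after soluble OVA. Between its lowest and highest group mean, *Mef2b* differed 52.2-fold and *Bcl6* 3.45-fold, *Bach2* 2.03-fold and *Pou2af1* 1.76-fold, whereas the other 6 genes stayed within 1.49-fold. All later levels are CPM not divided by length.

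**Figure D1:**
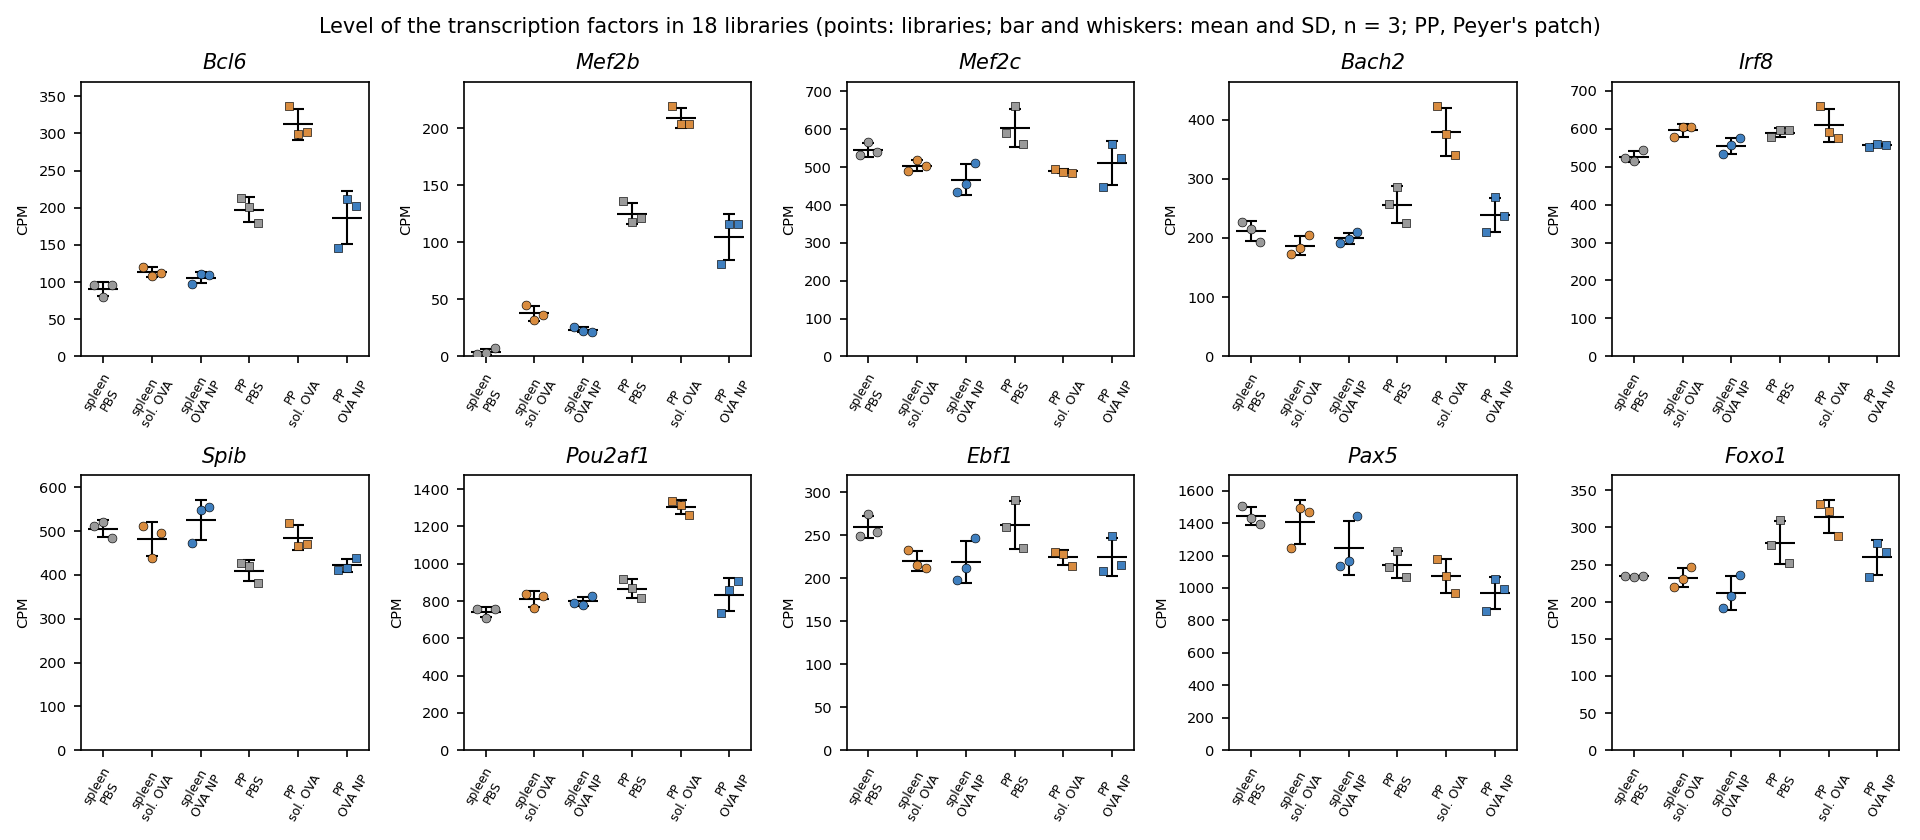
Level of each of the 10 genes in CPM (vertical axes, linear from 0, each panel with its own range) in the 18 libraries; points are single libraries (circles spleen, squares Peyer's patch, PP), and bars with whiskers are the mean and SD of 3 libraries. *Mef2b* runs from 2.17 CPM in a spleen PBS library to 219 CPM in a Peyer's patch soluble OVA library, while *Irf8* stays between 514 and 659 CPM.

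Differential expression was tested with edgeR (quasi-likelihood, Benjamini-Hochberg adjustment over all genes tested), and a gene was called where the adjusted p was below 0.05 and the log2 fold change beyond 0.25 in size. In the spleen, OVA NP against PBS called 1 of the 10 genes, *Mef2b*, which was higher, as were 8.60% of all genes tested. Soluble OVA against PBS called 2 in the spleen, *Mef2b* and *Bcl6*, where 17.2% of all genes were called. The spleen comparison of OVA NP with soluble OVA called *Mef2b* alone, against 0.238% of all genes. In Peyer's patches, soluble OVA against PBS called 5 of the 10 (background 27.4%), with *Mef2b*, *Bcl6*, *Bach2* and *Pou2af1* higher (4 genes, background 13.5%) and *Mef2c* lower (1 gene, background 13.9%). OVA NP against PBS called none of the 10 in Peyer's patches and 0.00% of all 15798 genes. At an unadjusted p below 0.05 that comparison had 2 of the 10 and 1573 genes in all, and DESeq2 called none of the 10 and 150 genes in all. OVA NP against soluble OVA called 4 of the 10 in Peyer's patches (background 30.1%), namely *Mef2b*, *Bcl6*, *Bach2* and *Pou2af1*, all 4 lower with OVA NP (background 16.3%).

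By ranges alone, the libraries of both groups did not overlap in 5 of the 10 genes for OVA NP against PBS in the spleen (37.2% of all genes), in 6 for soluble OVA against PBS (37.8%) and in 2 for OVA NP against soluble OVA (14.1%). In Peyer's patches the numbers were 4 for OVA NP against PBS (17.3%), 7 for soluble OVA against PBS (45.1%) and 7 for OVA NP against soluble OVA (48.4%). The 4 genes apart for OVA NP against PBS in Peyer's patches were *Mef2b*, *Mef2c*, *Irf8* and *Pax5*, each lower with OVA NP and none past the test. The PBS libraries of a tissue serve both treatments, and the soluble OVA libraries serve both the comparison with PBS and that with OVA NP, so these comparisons are not independent.

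**Figure D2:**
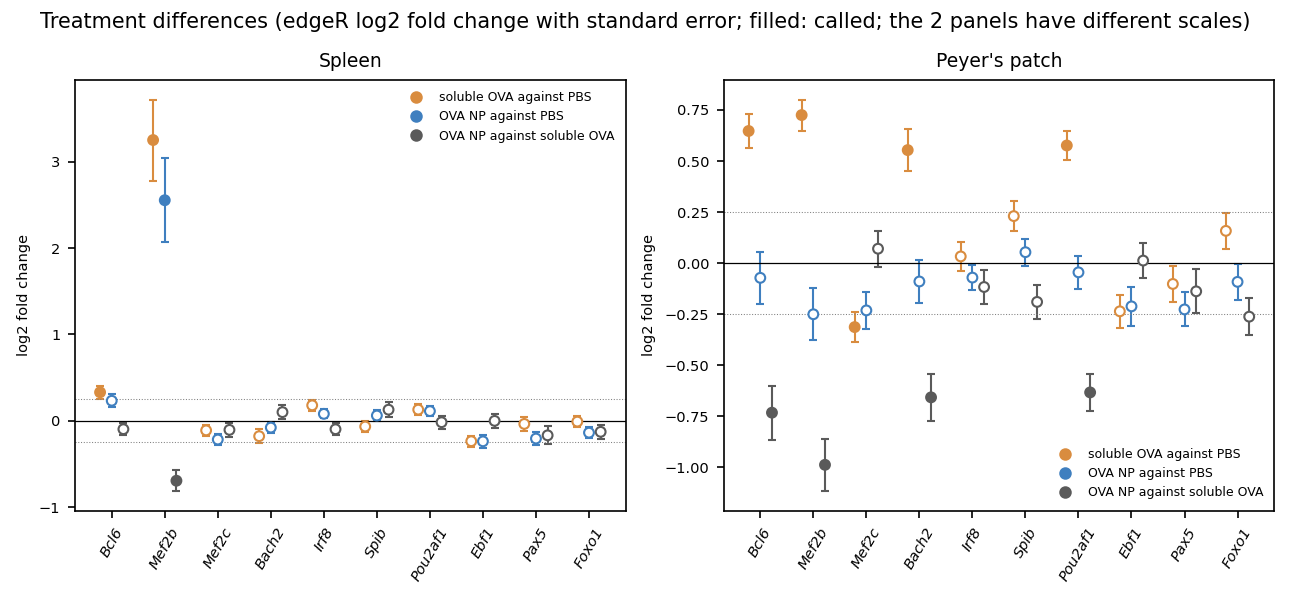
Log2 fold change (vertical axis; the panels differ in scale) of the 10 genes in the 3 treatment comparisons of the spleen (left) and Peyer's patches (right), with bars of 1 SE; filled dots were called, open dots were not, and dotted lines mark 0.25 and -0.25. In the spleen *Mef2b* stands far from the other genes, and in Peyer's patches *Mef2b*, *Bcl6*, *Bach2* and *Pou2af1* lie at 0.55 to 0.73 for soluble OVA against PBS and at -0.99 to -0.63 for OVA NP against soluble OVA.

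*Mef2b* (ENSMUSG00000079033; GRCm38 chromosome 8, 70139711–70167488, plus strand), an activator of *Bcl6* in germinal center B cells, was low in PBS spleen and rose with both OVA treatments there. Spleen PBS libraries held 2.17, 2.61 and 7.24 CPM, from 50, 64 and 160 counts. With soluble OVA the spleen libraries held 45.2, 31.6 and 36.1 CPM, and with OVA NP 25.7, 22.4 and 21.8 CPM. The 3 spleen groups did not overlap, soluble OVA was highest, and PBS replicate 3 stood above the other PBS libraries. *Mef2b* was higher than in PBS by a log2 fold change of 3.25 with soluble OVA (SE 0.47, edgeR adjusted p = 0.0117) and 2.56 with OVA NP (SE 0.48, edgeR adjusted p = 0.0283), and it was lower with OVA NP than with soluble OVA by a log2 fold change of -0.69 (SE 0.12, edgeR adjusted p = 0.0360). The OVA NP calls depended on single libraries, and the call against soluble OVA was also lost in the fit of all 18 libraries (log2 fold change -0.70, edgeR adjusted p = 0.677). Against PBS the call held without PBS replicate 3 (log2 fold change 3.28, edgeR adjusted p = 1.41e-07) and was lost when any of the other 5 libraries was left out, with a range of log2 fold changes of 2.26–3.28, and against soluble OVA it held without soluble OVA replicate 2 (edgeR adjusted p = 0.0226) and was lost without any of the other 5. The soluble OVA call was lost without soluble OVA replicate 1 (edgeR adjusted p = 0.0501), and the log2 fold change was 3.98 without PBS replicate 3.

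In Peyer's patches *Mef2b* was already high in PBS controls, at 136, 118 and 122 CPM. Soluble OVA libraries held 219, 204 and 204 CPM, and OVA NP libraries 81.4, 116 and 117 CPM. All soluble OVA libraries lay above PBS and all OVA NP libraries below it, with OVA NP replicate 1 the lowest by far. *Mef2b* rose with soluble OVA against PBS by a log2 fold change of 0.73 (SE 0.08, edgeR adjusted p = 0.000222) and was lower with OVA NP than with soluble OVA by -0.99 (SE 0.13, edgeR adjusted p = 0.00108), or -0.90 without OVA NP replicate 1. OVA NP against PBS had a log2 fold change of -0.25 (SE 0.13) that did not pass the test (edgeR adjusted p = 0.540), and -0.11 without replicate 1. In these mixed B cells, fewer cells of a type and less RNA per cell cannot be told apart. *Borcs8*, a gene on the same strand whose model overlaps that of *Mef2b*, had 542–1409 counts per library, up to 1490% of the *Mef2b* count, so reads of both could have been split unevenly. *Borcs8* was not called in either spleen comparison with PBS (log2 fold change 0.09 and 0.14) or with soluble OVA in Peyer's patches (0.22), and was lower there with OVA NP than with soluble OVA (-0.37, edgeR adjusted p = 0.0099).

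The upstream part of a RefSeq start of *Mef2b* (GRCm38.p6, chr8:70152511-70152760, plus strand, inside the gene model above) is shown because it holds the octamer ATGCAAAT, in capitals at position -85 from the start, the motif read by Oct factors together with the *Pou2af1* product. This motif was present on either strand in 1.74% of 32851 mouse promoter windows of the same length, and its match is a description only.
Mef2b: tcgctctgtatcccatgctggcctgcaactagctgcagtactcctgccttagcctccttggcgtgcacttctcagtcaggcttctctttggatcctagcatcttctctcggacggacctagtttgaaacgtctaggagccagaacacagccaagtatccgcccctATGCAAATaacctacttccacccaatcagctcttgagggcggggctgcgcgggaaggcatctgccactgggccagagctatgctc

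*Bcl6* (ENSMUSG00000022508; chromosome 16, 23965052–23988852, minus strand), the repressor that defines the germinal center state, rose after soluble OVA in both the spleen and Peyer's patches. Spleen libraries held 95.9, 80.4 and 95.6 CPM with PBS, 121, 108 and 112 with soluble OVA, and 97.2, 111 and 109.6 with OVA NP. Every library of both OVA groups lay above the PBS libraries, although OVA NP replicate 1 did so by little, and the 2 OVA groups overlapped. The log2 fold change was 0.33 with soluble OVA (SE 0.07, edgeR adjusted p = 0.00586), a call lost on size without PBS replicate 2 (0.25) and on the adjusted p in the fit of all 18 libraries (0.33, edgeR adjusted p = 0.0730). With OVA NP it was 0.23 (SE 0.07, edgeR adjusted p = 0.0420), under the size required for a call, which it exceeded without OVA NP replicate 1 (0.28, edgeR adjusted p = 0.0205). Peyer's patch libraries held 213, 201 and 179 CPM with PBS, 336, 299 and 301 with soluble OVA, and 146, 212 and 202 with OVA NP. Soluble OVA stood apart from both other groups, which overlapped. *Bcl6* was higher with soluble OVA than with PBS (log2 fold change 0.65, SE 0.08, edgeR adjusted p = 0.000589) and lower with OVA NP than with soluble OVA (-0.73, SE 0.13, edgeR adjusted p = 0.00440; -0.65 without OVA NP replicate 1). OVA NP against PBS gave -0.07 (SE 0.13, edgeR adjusted p = 0.862), or 0.06 without that library.

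Both RefSeq starts of *Bcl6* with a motif match are shown by their upstream 250 bases (GRCm38.p6, minus strand, chr16:23988853-23989102 and chr16:23981284-23981533). They match motifs of factors encoded by genes described here, which is a description only, as binding was not measured. Capitals mark GAGGAAG, a form of the site of PU.1 and Spi-B, at position -191 in the first (13.6% of all windows hold it), and TTCCTNGAA, a form of the site of Bcl6 itself, at position -168 in the second (1.59%).
Bcl6, upstream start: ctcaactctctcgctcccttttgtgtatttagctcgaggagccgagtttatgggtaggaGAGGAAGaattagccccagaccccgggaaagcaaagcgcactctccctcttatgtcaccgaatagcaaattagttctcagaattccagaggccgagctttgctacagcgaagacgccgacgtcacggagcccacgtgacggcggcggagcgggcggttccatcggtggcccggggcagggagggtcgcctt
Bcl6, downstream start: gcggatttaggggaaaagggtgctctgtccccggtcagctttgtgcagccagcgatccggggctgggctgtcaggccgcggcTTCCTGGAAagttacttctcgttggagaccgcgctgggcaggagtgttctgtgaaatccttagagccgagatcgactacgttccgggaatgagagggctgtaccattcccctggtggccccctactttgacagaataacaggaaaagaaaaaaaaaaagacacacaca

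*Mef2c* (ENSMUSG00000005583; chromosome 13, 83504034–83667080, plus strand), which supports B cell proliferation after receptor signaling and is a close relative of *Mef2b*, was lower after soluble OVA in Peyer's patches. Peyer's patch libraries held 590.1, 660.3 and 561 CPM with PBS, 496, 489 and 485 with soluble OVA, and 447, 561 and 524 with OVA NP. All soluble OVA libraries lay below the PBS libraries, and so did the OVA NP libraries, replicate 2 by less than 1 CPM. *Mef2c* fell with soluble OVA by 0.31 on the log2 scale (SE 0.07, edgeR adjusted p = 0.0120), a call lost in 3 of 6 fits that each left out 1 library (soluble OVA replicates 2 and 3 and PBS replicate 2). With OVA NP the log2 fold change was -0.23 (SE 0.09, edgeR adjusted p = 0.455). In the spleen the group means were 545 ± 17.8 CPM with PBS, 504 ± 14.1 with soluble OVA and 467 ± 40.0 with OVA NP (SD, n = 3 each). Soluble OVA against PBS gave -0.11 there (SE 0.06, edgeR adjusted p = 0.246), and OVA NP against PBS passed the p threshold at a size under that of a call (-0.22, SE 0.06, edgeR adjusted p = 0.0228), which it exceeded without OVA NP replicate 3 (-0.28, edgeR adjusted p = 0.000436).

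*Bach2* (ENSMUSG00000040270; chromosome 4, 32238804–32586108, plus strand), the repressor that delays plasma cell differentiation, rose with soluble OVA in Peyer's patches and passed no test in the spleen. Peyer's patch libraries held 257, 287 and 225 CPM with PBS, 422, 375 and 339.9 with soluble OVA, and 211, 269 and 237 with OVA NP. Soluble OVA stood above every other library of the series, whereas PBS and OVA NP overlapped. The log2 fold change was 0.55 for soluble OVA against PBS (SE 0.10, edgeR adjusted p = 0.00413) and -0.66 for OVA NP against soluble OVA (SE 0.11, edgeR adjusted p = 0.00309). Spleen libraries held 227, 215 and 193 CPM with PBS, 173, 183 and 205 with soluble OVA, and 191, 198 and 209 with OVA NP. The spleen groups overlapped, and the log2 fold change was -0.18 with soluble OVA (SE 0.08, edgeR adjusted p = 0.128) and -0.08 with OVA NP (SE 0.06, edgeR adjusted p = 0.418).

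*Pou2af1* (ENSMUSG00000032053; chromosome 9, 51213708–51240080, plus strand) encodes OCA-B, the B cell coactivator of Oct factors that germinal centers require. Peyer's patch libraries held 918, 869 and 815 CPM with PBS, 1334, 1314 and 1263 with soluble OVA, and 738, 857 and 908 with OVA NP. The 3 soluble OVA libraries were far above all others, and PBS and OVA NP overlapped. *Pou2af1* was higher with soluble OVA than with PBS (log2 fold change 0.58, SE 0.07, edgeR adjusted p = 0.000495) and lower with OVA NP than with soluble OVA (-0.63, SE 0.09, edgeR adjusted p = 0.00121). OVA NP against PBS gave -0.05 (SE 0.08, edgeR adjusted p = 0.863). In the spleen the group means were 741 ± 27.8 CPM with PBS, 809.6 ± 41.7 with soluble OVA and 797 ± 24.1 with OVA NP (SD, n = 3 each), and no spleen comparison called it, with log2 fold changes of 0.13 (edgeR adjusted p = 0.193) and 0.11 (edgeR adjusted p = 0.172) against PBS. The Peyer's patch calls of *Mef2b*, *Bcl6*, *Bach2* and *Pou2af1* with soluble OVA against PBS and with OVA NP against soluble OVA held whichever single library was left out.

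*Spib* (ENSMUSG00000008193; chromosome 7, 44525993–44532071, minus strand) and *Irf8* (ENSMUSG00000041515; chromosome 8, 120736358–120756694, plus strand) encode partners that bind composite sites in B cells, Spi-B being also active in signaling through the B cell receptor. *Spib* averaged 410.0 ± 24.3 CPM in Peyer's patches with PBS, 485 ± 29.0 with soluble OVA and 422 ± 14.6 with OVA NP (SD, n = 3 each). The soluble OVA libraries lay above both other groups, and the log2 fold change against PBS was 0.23 (SE 0.07, edgeR adjusted p = 0.0420), under the size of a call. DESeq2 called it (0.26, adjusted p = 0.0238), as did edgeR with no filter on low counts (0.27, adjusted p = 0.0275). In the spleen *Spib* ranged from 439 to 555 CPM with no call, and its log2 fold change was 0.06 with OVA NP (edgeR adjusted p = 0.547) and -0.07 with soluble OVA (edgeR adjusted p = 0.543). *Irf8* varied least of the 10, with group means of 527–609 CPM, and edgeR called it in 0 of 11 comparisons and contrasts between tissues, with 2 at an unadjusted p below 0.05 and 0 called by DESeq2. The largest treatment difference of *Irf8* was 0.18 with soluble OVA in the spleen (SE 0.06, edgeR adjusted p = 0.0612), where its libraries at 577–605 CPM lay above the 514–543 CPM of PBS.

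The lineage factors *Pax5* and *Ebf1* moved little with treatment. *Pax5* (ENSMUSG00000014030; chromosome 4, 44524757–44710487, minus strand), the guardian of B cell identity, averaged 1443 ± 57.2 CPM in PBS spleen, 1405 ± 136 with soluble OVA and 1247 ± 169 with OVA NP (SD, n = 3 each). In Peyer's patches its means were 1143 ± 82.5 with PBS, 1074 ± 105 with soluble OVA and 969 ± 101 with OVA NP (SD, n = 3 each). OVA NP had the lowest mean in both tissues, but the log2 fold changes against PBS, -0.21 in the spleen (SE 0.08, edgeR adjusted p = 0.0945) and -0.23 in Peyer's patches (SE 0.08, edgeR adjusted p = 0.441), did not pass. Without spleen OVA NP replicate 3, the spleen value was -0.32 and was called (edgeR adjusted p = 0.000203). *Ebf1* (ENSMUSG00000057098; chromosome 11, 44617317–45008091, plus strand), which acts upstream of *Pax5* in B cell development, had group means of 219–262 CPM, highest with PBS in both tissues. Its spleen libraries held 249.8, 275 and 254.5 CPM with PBS, 233, 215 and 212 with soluble OVA, and 199, 212 and 247 with OVA NP. Both OVA groups lay below PBS at log2 fold changes of -0.24 (edgeR adjusted p = 0.0156 with soluble OVA and 0.0326 with OVA NP, SE 0.06 and 0.07), just under the size of a call. edgeR called *Ebf1* in 0 of 11 comparisons and contrasts, with 3 at an unadjusted p below 0.05 and 0 called by DESeq2.

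*Foxo1* (ENSMUSG00000044167; chromosome 3, 52268336–52353221, plus strand), the factor behind the dark zone program whose activity is held down by PI3K signaling, was called by edgeR in none of the 6 treatment comparisons and by DESeq2 in 1, OVA NP against soluble OVA in Peyer's patches. Its spleen means were 234 ± 0.332 CPM with PBS, 232 ± 13.1 with soluble OVA and 212 ± 22.8 with OVA NP (SD, n = 3 each). Its Peyer's patch libraries held 276, 309.8 and 253 CPM with PBS, 332, 322 and 289 with soluble OVA, and 234, 279 and 267 with OVA NP. All OVA NP libraries lay below all soluble OVA libraries, with a log2 fold change of -0.26 (SE 0.09, edgeR adjusted p = 0.0570) that passed when OVA NP replicate 1, 2 or 3 or soluble OVA replicate 3 was left out (edgeR adjusted p = 0.0379, 0.0312, 0.0469 and 0.0432). The upstream part of its RefSeq start (GRCm38.p6, chr3:52268087-52268336, plus strand) is shown because it holds TCCCNNGGGA, a form of the Ebf1 site, in capitals at position -92. The motif was present in 0.904% of all windows, and in none of the other windows of the 10 genes, and its match is a description only.
Foxo1: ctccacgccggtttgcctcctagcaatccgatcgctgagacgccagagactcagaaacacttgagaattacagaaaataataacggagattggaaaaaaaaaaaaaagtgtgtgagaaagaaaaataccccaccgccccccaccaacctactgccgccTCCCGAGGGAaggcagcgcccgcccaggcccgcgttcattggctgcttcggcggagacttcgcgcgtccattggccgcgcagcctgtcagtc
Over the 15 windows of the 10 genes, GTAAACA, the site of FOXO factors, had 0 matches (3.65% of all windows hold it), as did the MEF2 motif (0.557%), and TGANTCA, a form of the Bach site, had a match in 1 window, of *Mef2c* (7.81%). GAGGAAG matched a window of *Mef2c* besides that of *Bcl6*.

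Between tissues, under PBS, 6 of the 10 genes were called, where 45.6% of all genes tested were, and 7 did not overlap between the groups (60.2% of all genes). Peyer's patch B cells had more *Mef2b* (log2 fold change 5.00, SE 0.43, edgeR adjusted p = 0.000548), *Bcl6* (1.14, SE 0.09, edgeR adjusted p = 5.42e-06), *Bach2* (0.29, edgeR adjusted p = 0.0170) and *Foxo1* (0.27, edgeR adjusted p = 0.00601). They had less *Pax5* (-0.32, edgeR adjusted p = 0.00159) and *Spib* (-0.28, edgeR adjusted p = 0.00275). *Mef2c*, *Irf8* and *Pou2af1* were 0.16 to 0.25 higher on the log2 scale with adjusted p below 0.05 and under the size of a call, and *Ebf1* differed by 0.03. The *Bach2* call was lost without Peyer's patch PBS replicate 1 or 2 or spleen PBS replicate 2 or 3, and the *Foxo1* call without Peyer's patch PBS replicate 2.

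Under soluble OVA, 6 of the 10 were called between tissues (background 51.1%), and 6 did not overlap (background 62.6%). *Bcl6* (1.46), *Mef2b* (2.47), *Bach2* (1.02), *Pou2af1* (0.69) and *Foxo1* (0.44) were higher in Peyer's patches and *Pax5* (-0.39) was lower, while *Spib* had a log2 fold change of 0.01 (edgeR adjusted p = 0.939). The *Pax5* call was lost without Peyer's patch soluble OVA replicate 3. Under OVA NP, 6 were called (background 37.1%) and 5 did not overlap (background 54.6%), with *Mef2b* at 2.22, *Bcl6* at 0.86, *Foxo1* at 0.34 and *Bach2* at 0.31 higher, and *Spib* at -0.27 and *Pax5* at -0.31 lower in Peyer's patches. These calls were lost for *Bach2* without Peyer's patch OVA NP replicate 2 or spleen OVA NP replicate 1 or 2, for *Spib* without Peyer's patch replicate 2 or spleen replicate 2 or 3, for *Pax5* without Peyer's patch replicate 1 or 3 or spleen replicate 3, and for *Foxo1* without spleen replicate 2. The 5 B cell markers summed lower in Peyer's patches, as given above, and markers of gut epithelium summed to 150.1–679.8 CPM there against 7.11–9.54 CPM in the spleen; their part in these differences was not tested.

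**Figure D3:**
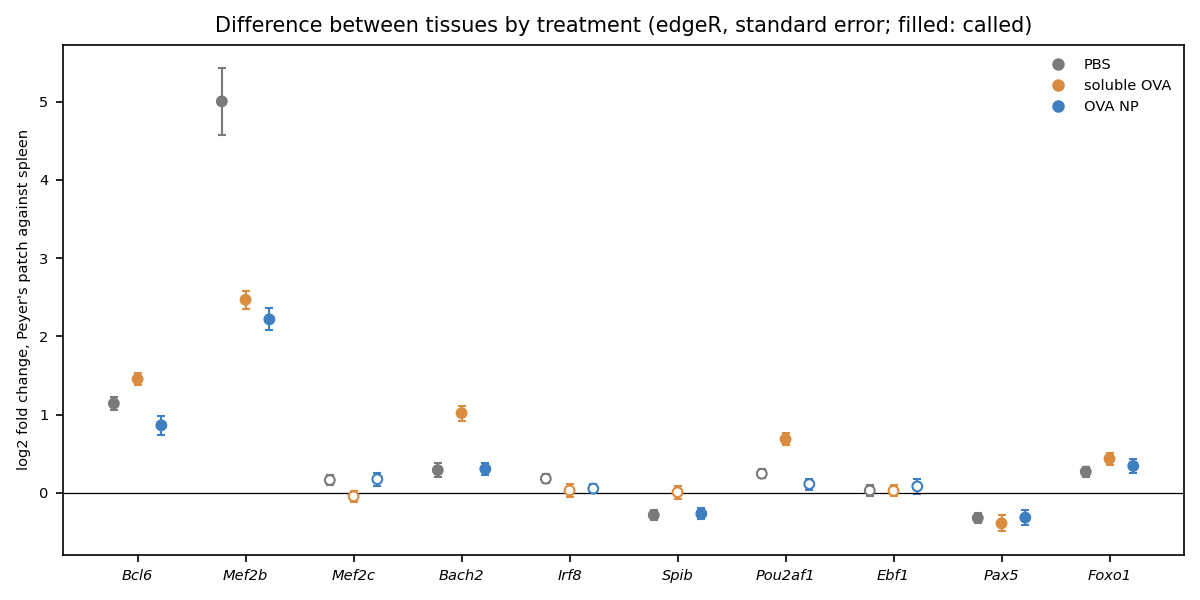
Log2 fold change of Peyer's patch against spleen (vertical axis) for the 10 genes under PBS, soluble OVA and OVA NP, with bars of 1 SE; filled dots were called and open dots were not. *Mef2b* (5.00, 2.47 and 2.22) and *Bcl6* (1.14, 1.46 and 0.86) lie above 0 under all 3 treatments, and *Pax5* lies below 0.

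The treatment effects themselves differed between tissues for 3 of the 10 genes after soluble OVA (6.84% of all genes differed at adjusted p below 0.05) and for *Mef2b* alone after OVA NP (4.42%). *Mef2b* rose by 3.25 in the spleen and 0.73 in Peyer's patches on the log2 scale with soluble OVA, a difference of -2.53 (edgeR adjusted p = 0.0100). With OVA NP its effects were 2.56 and -0.25, a difference of -2.79 (SE 0.45, edgeR adjusted p = 0.0127). The log2 scale weighs the low *Mef2b* level of PBS spleen heavily. In CPM, its mean rose with soluble OVA from 4.00 to 37.6 in the spleen and by more, from 125 to 209, in Peyer's patches. On the log2 scale *Bach2* and *Pou2af1* showed the opposite order after soluble OVA, with the higher value in Peyer's patches, by 0.74 (edgeR adjusted p = 0.00713) and 0.45 (edgeR adjusted p = 0.0116). For *Bach2* the effects were 0.55 in Peyer's patches and -0.18 in the spleen, of opposite sign, and for *Pou2af1* 0.58 and 0.13. Neither spleen effect was called. *Bcl6* differed by 0.32 and was not called. These calls held whichever single library was left out.

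Genes around the 10 factors were followed in 8 lists, which share members: 7 genes, *Klf2* and *Irf4* among them, stood in more than 1 list. In the spleen, soluble OVA against PBS, 12 of 13 tested germinal center B cell genes rose and none fell (median log2 fold change 2.99), among them *Nuggc* (3.61) and *Gcsam* (3.51), and all 10 proliferation genes rose (median 1.305). With OVA NP, 10 of 12 germinal center genes (median 2.47) and all 10 proliferation genes (median 1.27) rose in the spleen. The summed germinal center list was 88.7–184.5 CPM in PBS spleen, with replicate 3 highest, as it was for *Mef2b*, against 482–744.5 with soluble OVA and 439.5–523 with OVA NP. Without PBS replicate 3, 12 of 13 germinal center genes were called for OVA NP (median 3.21).

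In Peyer's patches after soluble OVA, 11 of 13 germinal center genes rose (median 0.66; *Nuggc* 1.16, *Fas* 0.57), as did all 10 proliferation genes (median 1.09; *Bub1*, a mitotic checkpoint kinase, 1.28). Of 18 genes that Bcl6 is known to repress, 13 fell and 1 rose (median -0.81). *Gpr183* (-1.71) and *S1pr1* (-1.46), receptors that guide cells within and out of lymphoid follicles, were among those that fell, and the adhesion receptor *Cd44* rose (0.33). Of 11 genes known to be activated by Foxo1, 9 fell and none rose (median -1.11), with the homing receptor gene *Ccr7* at -2.37, the migration regulator *Klf2* at -1.86 and the chemokine receptor gene *Cxcr4* at -0.48, and the *Foxo1* transcript itself had a log2 fold change of 0.16 (edgeR adjusted p = 0.215). Of 14 B lineage genes activated by Pax5 and Ebf1, 10 fell and 1 rose (median -0.48), with the IgE receptor gene *Fcer2a* at -1.61, the scaffold gene *Bank1* at -0.71 and the adaptor gene *Blnk* at 0.41. Without Peyer's patch PBS replicate 2, 9 Bcl6-repressed, 7 Foxo1-activated and 7 Pax5- and Ebf1-activated genes fell. For scale, the median log2 fold change over all genes tested was -0.02 and that of the 10 factors 0.19, and of all genes 13.5% were called higher and 13.9% lower.

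Other regulators and cofactors were tested as well after soluble OVA in Peyer's patches, where 13.5% of all genes were called higher and 13.9% lower. Of 24 further B cell regulators, 3 rose (*Mybl1*, a germinal center factor, at 0.91 and *Tcf4*, an E protein, at 0.38 among them) and 10 fell, with *Klf2* (-1.86) and *Irf4*, a driver of plasma cell fate (-1.297), among them. Of 14 corepressors of Bcl6 and chromatin regulators, 6 rose and none fell, with the histone methyltransferase gene *Ezh2* at 0.98, the DNA methyltransferase gene *Dnmt1* at 0.88 and the corepressor gene *Hdac3* at 0.33. Of the genes of the Oct partners of *Pou2af1*, chosen after their values were seen, *Pou2f1* was at -0.03 (edgeR adjusted p = 0.848) and *Pou2f2* was lower at -0.31 (edgeR adjusted p = 0.0180).

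With OVA NP against soluble OVA in Peyer's patches, 10 of 13 germinal center genes fell (median -0.73; *Efnb1* -1.16), all 10 proliferation genes fell (median -1.23), 12 of 18 Bcl6-repressed genes rose and 2 fell (median 0.64), and 6 of 11 Foxo1-activated genes rose (median 1.00). Of the chromatin regulators, 6 of 14 fell (*Ezh2* at -0.98 among them) and 2 rose (*Kmt2d* 0.40, *Crebbp* 0.28). In the same comparison 6 of 8 T cell markers were called higher with OVA NP. Of 8 dendritic cell markers, 7 were called higher and 1 lower, and of 7 monocyte and macrophage markers, 3 were called higher and 0 lower. Of all genes, 30.1% were called in this comparison, and 16.3% were called lower. The soluble OVA libraries are shared with the comparison against PBS. With OVA NP against PBS in Peyer's patches, edgeR called 0 of 101 list genes, with 21 at an unadjusted p below 0.05 and 1 called by DESeq2, and the medians were -0.05 for germinal center and -0.17 for proliferation genes.

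**Figure D4:**
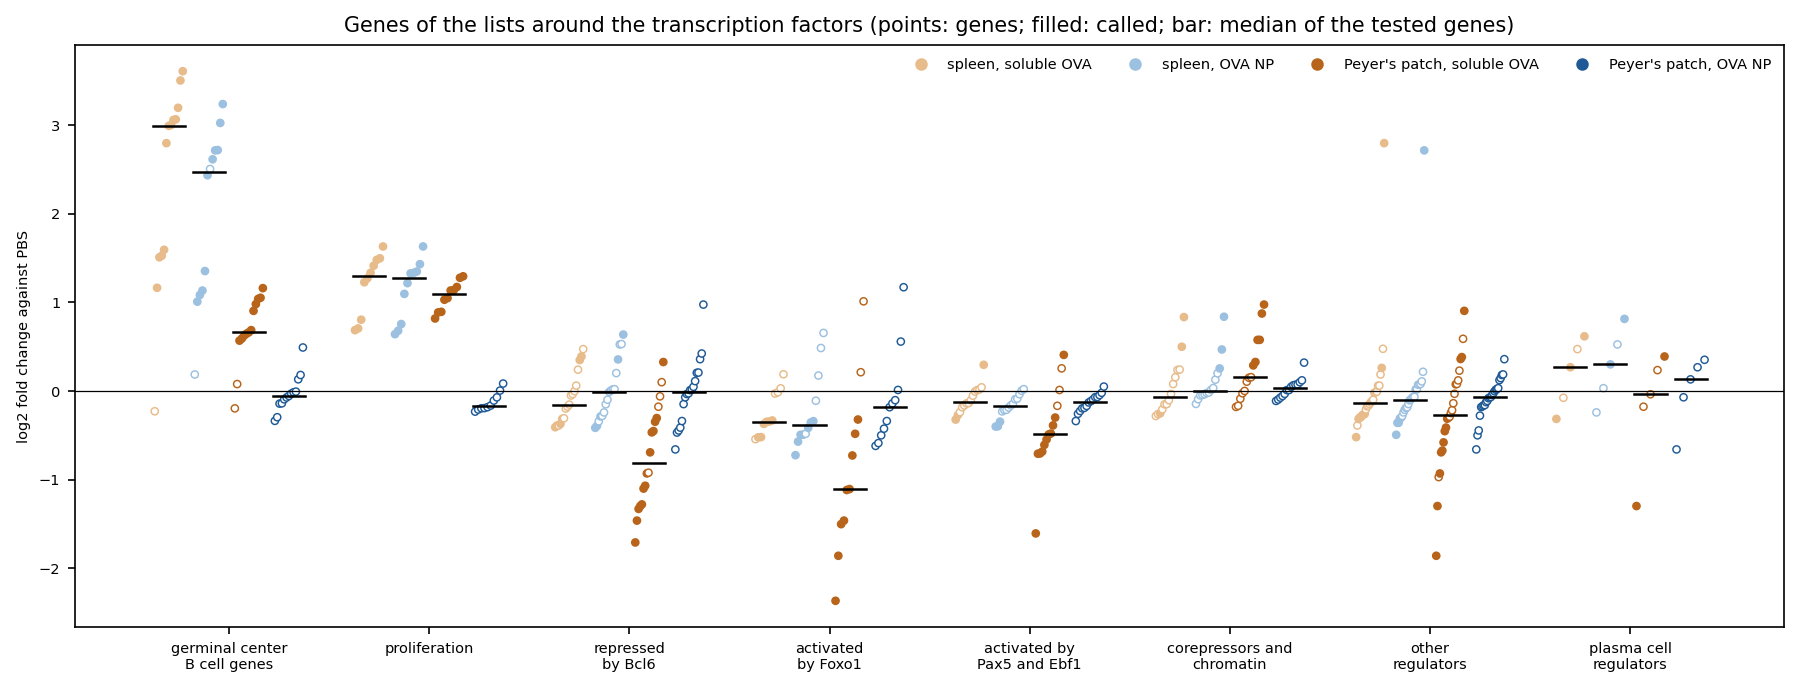
Log2 fold change against PBS (vertical axis) of the genes of 8 lists around the factors, for soluble OVA and OVA NP in both tissues; points are genes, filled where called, and bars are the median of the tested genes of a list. After soluble OVA in Peyer's patches the germinal center and proliferation medians lie at 0.66 and 1.09 and those of the Bcl6-repressed and Foxo1-activated genes at -0.81 and -1.11.

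In the spleen the Foxo1-activated list had 7 of 12 genes lower with OVA NP (median -0.38; *Sesn1* -0.72, *Ccr7* -0.35) and 6 of 11 lower with soluble OVA (median -0.34; *Ccr7* -0.52, *Klf2* -0.52). The Bcl6-repressed list was mixed there, with 2 of 17 genes higher and 3 lower for OVA NP (*Ccnd2*, a cyclin, at 0.64 and *S1pr1* at -0.41) and 2 higher and 4 lower for soluble OVA. For scale, of all genes tested in the spleen 8.60% were called higher with OVA NP and 17.2% in either direction with soluble OVA. The share called lower with OVA NP is not reported here. Of the Pax5- and Ebf1-activated genes, 3 of 14 fell with OVA NP (*Fcer2a* -0.40, *Blk* -0.40, *Ralgps2* -0.34) and none rose. Of the 14 chromatin regulators, 3 rose with OVA NP and none fell (*Ezh2* 0.84, *Dnmt1* 0.47, *Suz12* 0.26). Of 5 plasma cell regulators, 2 rose with OVA NP in the spleen, *Xbp1* (0.81), which drives antibody secretion, and *Ell2* (0.30), and in Peyer's patches *Ell2* rose (0.39) and *Irf4* fell with soluble OVA. Between OVA NP and soluble OVA in the spleen, edgeR called 2 of 101 list genes, *Pik3ip1* (-0.56) among them, with 20 at an unadjusted p below 0.05 and 5 called by DESeq2.

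The order of the 6 groups by mean level differed between the factors. How often neighbouring groups do not overlap over all genes was not counted, so the counts below are a description only. *Mef2b* was highest in Peyer's patches with soluble OVA, then with PBS, then with OVA NP, and then came spleen with soluble OVA, OVA NP and PBS. None of its 5 neighbouring pairs overlapped, although Peyer's patch OVA NP reached 116.5 CPM and PBS began at 118.3 CPM. *Bcl6* had the same order, but Peyer's patch PBS overlapped OVA NP, and spleen soluble OVA overlapped spleen OVA NP. In *Pou2af1* 2 of 5 neighbouring pairs did not overlap, in *Bach2*, *Irf8*, *Spib* and *Ebf1* 1, and in *Mef2c*, *Pax5* and *Foxo1* none. Peyer's patch OVA NP replicate 1 was the lowest of its group in 10 of 10 genes, and Peyer's patch soluble OVA replicate 1 was the highest of its group in 10 of 10. The margin was small in some genes, as in *Irf8* with OVA NP (552.8 against 558.1 and 559.6 CPM). Ranks over all genes were not counted. Over all genes kept by the filter, OVA NP replicate 1 differed from replicates 2 and 3 by a chi-square per gene of 25.7 and 23.7. Between replicates 2 and 3 it was 7.85. For soluble OVA replicate 1 the values were 38.0 and 25.8, against 12.9 between the others. Epithelial markers in replicates 1 to 3 summed to 664.6, 345.6 and 433.8 CPM with OVA NP and to 176.4, 679.8 and 628.9 with soluble OVA. Their part in these ranks was not tested.

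Across the 18 libraries and 14091 genes, the genes with the pattern most like *Mef2b* were *S1pr2* (r = 0.997) and *Nuggc* (0.996), and those most like *Bcl6* were *Plekho1* (0.992), *Epb41l2* (0.989) and *Rev1* (0.988). *Bach2* was closest to *Cyfip2* (0.973) and *Pou2af1* to *Rad21* (0.984), *Cpsf2* (0.983) and *Smc1a* (0.981). The nearest genes of the others were less alike, at 0.866 for *Irf8* (*Parvg*), 0.872 for *Ebf1* (*Mef2c*), 0.907 for *Mef2c* (*Tcf25*) and *Spib* (*Tbp*), 0.926 for *Pax5* (*Cd180*) and 0.973 for *Foxo1* (*Ccdc50*). These correlations describe libraries that share groups and depth, and no p is given. Among the 10, *Bcl6* and *Mef2b* ran together over the 9 spleen (0.84) and the 9 Peyer's patch libraries (0.98), whereas *Bcl6* and *Bach2* had r = -0.55 in the spleen and 0.96 in Peyer's patches. These values include the differences between group means, and after each group's mean was taken off, r over the 18 libraries was 0.40 for *Bcl6* and *Mef2b* and 0.54 for *Bcl6* and *Bach2*.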

How the data were processed

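RNA of magnetically enriched B cells was measured by polyA RNA-seq (151-base paired reads) in 18 libraries of 6 tissue-by-treatment groups with 3 libraries each. According to the submitters' processing notes and the study's methods, reads were trimmed with Cutadapt 2.3, aligned with STAR 2.7.8a to GRCm38 (Ensembl 102) and counted per gene with RSEM 1.3.3. The deposited values are expected counts, not normalized by the authors, and every value was a whole number, so no rounding was needed; RSEM divides reads between overlapping models, which matters for *Mef2b*. The authors tested with DESeq2.

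From the counts, CPM were computed with TMM-scaled library sizes, and log2 CPM used a prior count of 2. Genes were filtered by filterByExpr (minimum count 10, minimum total 15) and tested with edgeR 4.0.16 (quasi-likelihood F test, robust, R 4.3.3) on the 6 libraries of each pair of groups, or 12 for the difference of effects between tissues, which was called on the adjusted p alone. Depth of 14177253 to 30052297 counts makes 3 counts 0.0998–0.212 CPM. Precision is set by 3 libraries per group, for which an exact permutation test could not go below p = 0.1. Alternatives were DESeq2 1.42.0, its size factors in edgeR, no filter, no minimum fold change, all 18 libraries in one fit, a replicate block and leaving out each library. Scripts were tested on simulated data. Replicate libraries of a group all differed by more than sampling noise (chi-square 4.25 to 38.0 per gene over 18 pairs). In no comparison did every same-numbered pair of libraries deviate together (r above 0.1; mean r -0.24 to 0.09), so the numbers were not used as pairs. Single pairs reached up to r = 0.24 (replicate 3, spleen OVA NP and soluble OVA).

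The 10 genes and the gene lists were chosen with earlier results of these data known. All 10 genes were named, and in each list at most 4 called genes of a comparison, the 2 with the largest and the 2 with the smallest log2 fold change; by pattern, up to 3 genes with the highest Pearson r over the 18 libraries. Some genes that this rule gives are not reported here. Positions and exon lengths are from GENCODE M21 (GRCm38), and promoter windows (250 bases before to 50 after a start) and their build are from RefSeq (GRCm38.p6), which gave 15 windows for the 10 genes; all printed stretches end at the start. Motifs were searched on both strands.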

Additional observations from a re-analysis of the deposited data

Results flagged for a closer look

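4 results stood out because a treatment effect differed between the tissues by a test of the difference itself (edgeR, libraries of 4 groups). For *Mef2b* the effect in Peyer's patches minus that in the spleen was -2.79 on the log2 scale with OVA NP and -2.53 with soluble OVA. Its mean in PBS spleen was only 4.00 CPM, and in CPM its rise with soluble OVA was larger in Peyer's patches. The same log2 difference was 0.74 for *Bach2* and 0.45 for *Pou2af1*, both with soluble OVA. With 3 libraries per group, no group was large enough for the test of a single library far from the others.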

How the results depend on the processing

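No result of the 10 genes changed its direction past the threshold under any alternative. In the spleen, the count of the 10 genes called for OVA NP against PBS was 4 with no minimum fold change (2849 of all 14200 genes tested). It was 0 with the replicate block (2097 genes in all) and 0 to 3 with 1 library left out (1539 to 2889 in all). For soluble OVA against PBS it was 1 in the fit of all 18 libraries (1831 in all) and 1 with the replicate block (2265 in all). With 1 library left out it was 1 to 3 there (1754 to 2472 in all). For OVA NP against soluble OVA it was 0 in the 18-library fit (14 in all) and 0 to 1 with 1 left out (0 to 40 in all). Between tissues under OVA NP it was 3 to 5 with 1 library left out (4814 to 6276 in all).

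Counts over all genes moved as follows. For OVA NP against soluble OVA in the spleen they were 83 with DESeq2, 230 with no filter, 14 in the 18-library fit and 0 to 40 with 1 library left out. For OVA NP against PBS in Peyer's patches they were 150 with DESeq2, 146 with no filter, 24 in the 18-library fit and 0 to 8 with 1 left out. For OVA NP against soluble OVA in Peyer's patches the replicate block gave 3119. The effects that differed between tissues numbered 1253 with DESeq2, 429 with the replicate block and 291 to 945 with 1 left out for OVA NP, and 1849 with DESeq2 and 655 to 1279 with 1 left out for soluble OVA. The cause of these shifts was not tested. The *Mef2b* spleen calls against PBS were lost with the replicate block (adjusted p = 0.101 for OVA NP and 0.0782 for soluble OVA), and the OVA NP call also with no filter (0.0578). List counts without a library that stood apart were added after seeing the data; without spleen PBS replicate 3, 5 of the further B cell regulators were called for soluble OVA against PBS in the spleen, against 8 with it.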
